A study of Mus musculus with 9 samples.

Results

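RNA sequencing data of the mouse macrophage line RAW264.7 were examined for 10 genes of purinergic signaling. The genes were the ATP-gated channels P2rx4 and P2rx7, the nucleotide receptors P2ry2, P2ry6 and P2ry14, the ectoenzymes Entpd1 (CD39) and Nt5e (CD73), the adenosine receptors Adora2a and Adora2b, and the adenosine deaminase Ada. They were selected by gene symbol, and all 10 were present among the 28137 Ensembl identifiers with deposited values. There were 9 libraries, 3 for each of 3 groups: NC siRNA (a control siRNA), SFRP2 siRNA and RAB6A siRNA. SFRP2 is a secreted modulator of Wnt signaling, and RAB6A is a small GTPase of the Golgi. According to the labels, cells of all groups received 60 nM siRNA for 6 h, were kept in complete medium for 12 h, and were then stimulated with LPS (100 ng/ml) for 24 h. All groups were therefore LPS-treated, and there was no group without LPS or without siRNA. The labels do not say whether the libraries of a group came from separate cultures, so p-values measure only the spread between these libraries. The libraries of the SFRP2 siRNA group are titled siRNA-1 to siRNA-3, and it is not stated whether each received a different siRNA.

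ATP and UTP released by stressed cells act on P2 receptors of macrophages. ENTPD1 removes phosphates from ATP and ADP to give AMP, and NT5E turns AMP into adenosine. Adenosine acts on ADORA2A and ADORA2B, which couple to the stimulatory G protein and raise cAMP, until ADA deaminates it to inosine. In macrophages, ATP at P2RX7 is a classical trigger of potassium efflux and of the NLRP3 inflammasome, and adenosine at A2 receptors is known to dampen the response to LPS.

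Depth, recovered from the steps of the values, ranged from 32758730 to 47149257 reads per library, and was 41608378 to 47149257 in the NC group, 34743304 to 40562562 in the SFRP2 siRNA group and 32758730 to 37833882 in the RAB6A siRNA group. Of 9 macrophage markers all 9 were detected in every group, with a summed FPKM of 4563 to 5032 in NC, 4034 to 4365 in SFRP2 siRNA and 3957 to 4121 in RAB6A siRNA libraries. Mertk was barely detected, with a mean of 0.0248 FPKM in NC, 0.00774 in SFRP2 siRNA and 0.0380 in RAB6A siRNA. Most of the sum was Cd68 (mean 1850.0 FPKM in NC) and Cd14 (1679). Summed FPKM of each marker list of T cells, B cells, neutrophils, fibroblasts, endothelial cells and epithelial cells was at most 2.90. The targeted Rab6a had 25.7 ± 1.48 FPKM (SD, n = 3) in NC and 20.7 ± 0.445 in the libraries labelled RAB6A siRNA (log2 fold change -0.31, limma adjusted p = 0.0024). This was a small fall (ratio 0.808), and 73.3% of all genes tested had a larger change in either direction. On its own it does not set the target apart from other genes in that comparison. The targeted Sfrp2 had only 2 to 4 reads per library, and its FPKM was 0.0213 ± 0.00140 in NC and 0.0401 ± 0.0116 in the libraries labelled SFRP2 siRNA. These few reads do not show a knockdown, so every direction given for the libraries labelled SFRP2 siRNA rests on the label.

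The highest level among the 10 genes was that of P2ry6, with 32.7 ± 2.55 FPKM in NC (SD, n = 3), a level above that of 94.9% of the genes in the table. FPKM is scaled to gene length, here the length of all annotated exons, so the order of different genes also depends on that length. Adora2b (5.87 FPKM) and P2ry2 (5.65) followed without a gap beyond their spread, then P2rx7 (4.24) and Ada (4.11), which also overlapped, and then P2rx4 (3.38). Adora2a (0.137), Nt5e (0.0465) and Entpd1 (0.0426) lay far below these in NC, and neighbouring genes of these 3 overlapped. P2ry14 was last at 0.00425 FPKM. The order in the SFRP2 siRNA group was the same. In the RAB6A siRNA group P2rx4 stood directly below Adora2b and P2ry2 below Ada, neighbours among P2rx4, P2rx7, Ada and P2ry2 overlapped, and Entpd1 stood above Adora2a without overlap.

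**Figure D1:**
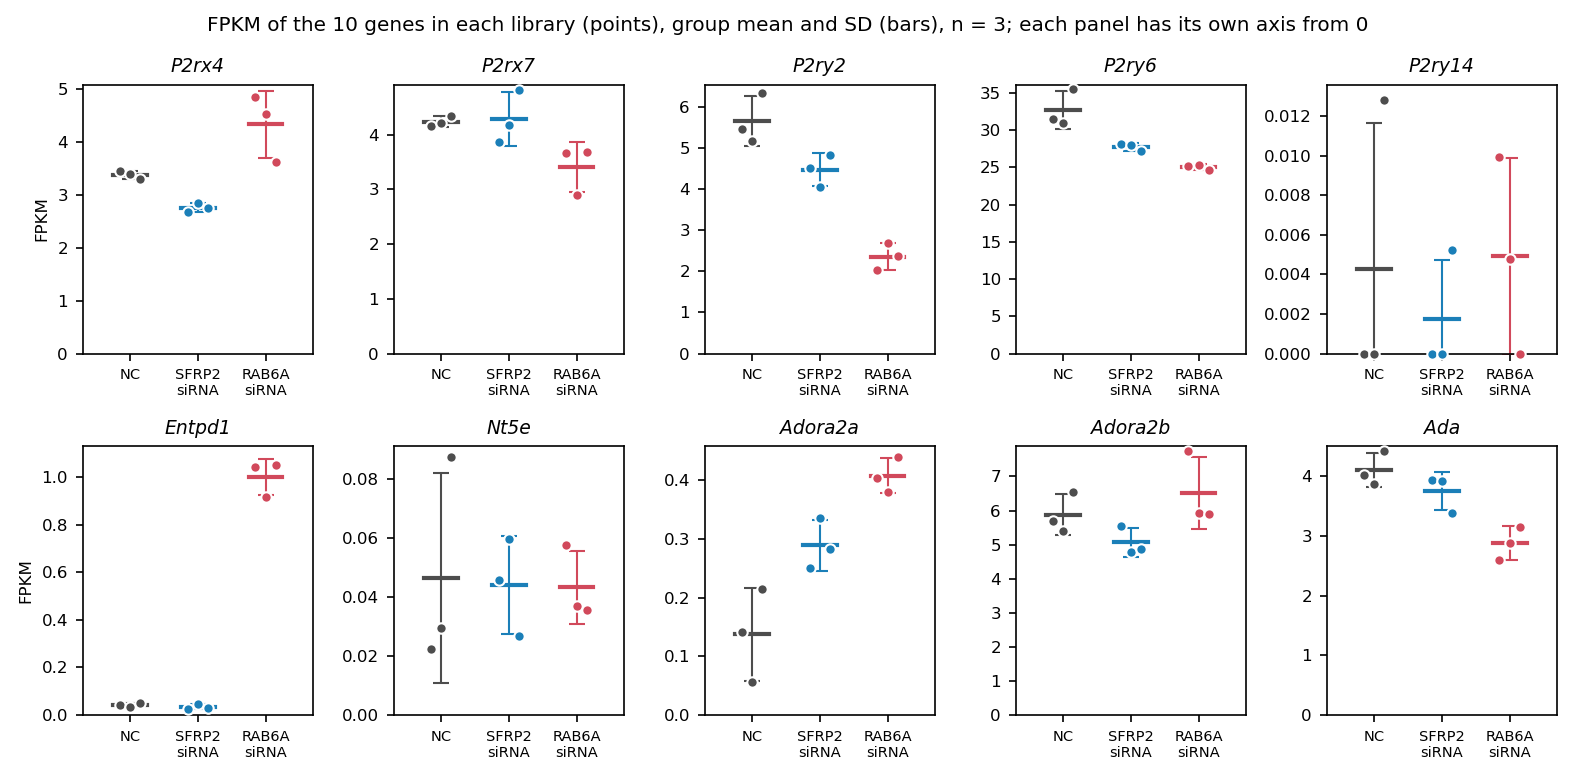
FPKM of the 10 genes (y axis, linear from 0, a different range in each panel) in the 3 libraries of each group (points), with group mean and SD (bars, cut at 0 for P2ry14). Entpd1 stands near 1.00 FPKM in the RAB6A siRNA libraries and below 0.06 in the other 6, and P2rx4 is lower in SFRP2 siRNA and higher in RAB6A siRNA than in NC.

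The first question was whether SFRP2 siRNA changed these genes in LPS-treated macrophages. Of the 10 genes 6 passed the filter of a mean of at least 0.5 FPKM, and 0 of these were called at an adjusted p under 0.05 (limma), as was the case for 0 of all 12017 genes tested (percent called 0). At an unadjusted p under 0.05 there were 3, P2rx4, P2ry2 and P2ry6, all lower in the libraries labelled SFRP2 siRNA, beside 18.5% of all genes tested (10.7% lower). With voom on recovered reads, 42 genes were called in all, and 0 of them were among the 10. The study, which names a test for counts, reports genes past its thresholds in both directions for SFRP2 siRNA in RAW264.7 cells. Its result therefore differs from the 0 genes called here by limma. The median log2 fold change was -0.22 over the 6 tested genes and -0.01 over all genes tested. Libraries of the groups did not overlap for 3 of the 6, all lower in SFRP2 siRNA, beside 24.7% of all genes tested (13.9% lower).

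The second comparison was RAB6A siRNA against NC, in which most genes moved. Of the 10 genes 7 passed the filter, and 6 of them were called at an adjusted p under 0.05 (limma), beside 74.1% of all 12712 genes tested. With 7 genes this count lay near the background, and it was 3 without RAB6A siRNA replicate 2, where Entpd1 was under the filter. Entpd1 and P2rx4 rose (37.6% of all genes tested rose), and P2rx7, P2ry2, P2ry6 and Ada fell (36.5% of all fell). Entpd1 and P2ry2 also passed an absolute log2 fold change over 1, as did 30.1% of all genes tested. Libraries of the groups did not overlap for 6 of the 7, beside 77.4% of all genes tested. Entpd1 passed the filter only through the RAB6A siRNA libraries, so its presence among the tested genes already depended on its level there. The median was -0.31 over the 7 genes and 0.03 over all. Of 6 LPS response genes, 3 fell with RAB6A siRNA (Acod1, Il6 and Tnf), 2 rose (Il1b and Ptgs2) and Nos2 was not called. Their summed FPKM was 4329 to 4616 in NC, 4059 to 4245 in SFRP2 siRNA and 2461 to 2635 in RAB6A siRNA libraries, and most of this difference was Acod1, with a mean of 2458 FPKM in NC and 624 in RAB6A siRNA. Of 8 tested macrophage markers 4 were called lower in RAB6A siRNA and 0 higher. The log2 fold change was -2.03 for Lyz2, -1.44 for Csf1r, -1.05 for Spi1 and -0.75 for Fcgr1. Among markers of other cells, all at low levels, Col1a2 (0.310 to 0.825 FPKM) and Dcn (0.348 to 0.701) of fibroblasts were called higher and S100a8 of neutrophils (0.896 to 0.135) lower, and each passed the filter only through the group in which it was higher. The part of these genes in the values below was not tested. In RNA of whole cultures, fewer cells of a kind and less RNA per cell cannot be told apart.

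**Figure D2:**
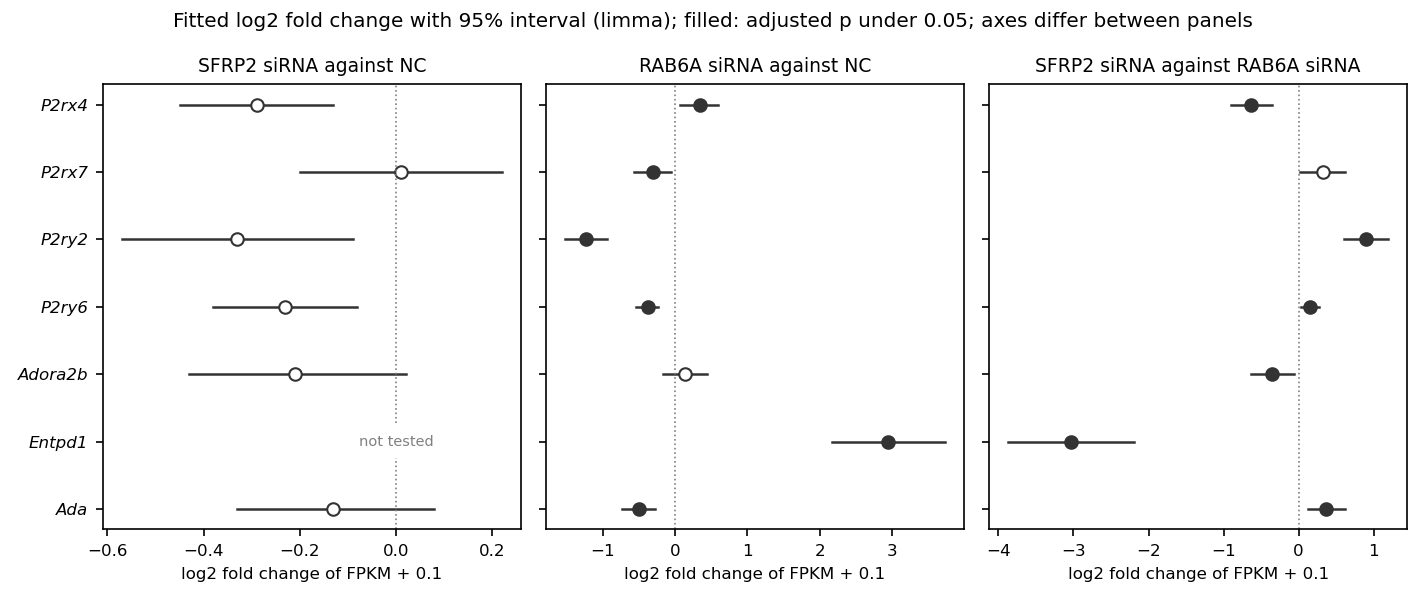
Log2 fold change of FPKM + 0.1 (x axis, a different range in each panel) with its 95% interval for the genes that passed the filter, in the 3 comparisons, filled where the limma adjusted p was under 0.05. None is filled in SFRP2 siRNA against NC, where Entpd1 was not tested, and 6 of 7 are filled in RAB6A siRNA against NC, from -1.23 for P2ry2 to 2.95 for Entpd1.

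The ATP-gated channels P2rx7 and P2rx4 are neighbours on chromosome 5 of GRCm38 (GENCODE M21), both on the + strand. P2rx7 (ENSMUSG00000029468) lies at chr5:122643911-122691432 and P2rx4 (ENSMUSG00000029470) at chr5:122707544-122729738, with 16111 bases between them. P2RX7 opens at high ATP and drives potassium out of the cell, and P2RX4 responds to lower ATP and resides largely in lysosomes of macrophages. Because these neighbours differed in direction in RAB6A siRNA, a RefSeq promoter window of each, at the start nearest to the beginning of the gene, is shown (GRCm38.p6, 250 bases before to 50 after a start, 5′ to 3′ on the + strand, the windows being chr5:122643677-122643976 and chr5:122707294-122707593). Capitals mark the AP-1 motif TGANTCA in P2rx7 (from -249 to -243, counting the start base as 0) and, in P2rx4, the reverse strand match of TGACG, the core of the cAMP response element (from -178 to -174 and from -57 to -53).
P2rx7: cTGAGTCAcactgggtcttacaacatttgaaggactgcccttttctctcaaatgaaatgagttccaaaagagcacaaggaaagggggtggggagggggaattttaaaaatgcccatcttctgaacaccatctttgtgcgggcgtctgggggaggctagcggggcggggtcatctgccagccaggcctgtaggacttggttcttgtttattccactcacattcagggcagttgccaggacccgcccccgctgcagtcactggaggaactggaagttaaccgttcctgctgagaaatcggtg
P2rx4: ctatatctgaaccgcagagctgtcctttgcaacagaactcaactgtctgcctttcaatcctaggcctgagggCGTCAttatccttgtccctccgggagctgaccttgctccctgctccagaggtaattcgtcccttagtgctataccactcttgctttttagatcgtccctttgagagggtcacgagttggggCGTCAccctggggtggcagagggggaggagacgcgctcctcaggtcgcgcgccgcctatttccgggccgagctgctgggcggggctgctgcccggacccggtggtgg
Searched on both strands, TGANTCA is held by 7.81% and TGACG by 20.8% of 32851 windows of this length, and such a match describes letters and not a bound site. P2rx7 has another RefSeq start, with a window at chr5:122650133-122650432 that is not printed and that held the reverse match of GAGGAAG, the core bound by the macrophage factor PU.1, from 4 to 10 bases after the start.

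P2rx4 had 3.45, 3.40 and 3.30 FPKM in the NC libraries, 2.67, 2.84 and 2.75 in the SFRP2 siRNA libraries, and 4.85, 4.53 and 3.62 in the RAB6A siRNA libraries. Every library labelled SFRP2 siRNA was below and every RAB6A siRNA library above all NC libraries. Against NC, the log2 fold change was -0.29 (SE 0.07, 95% interval -0.45 to -0.13, limma unadjusted p = 0.0034, adjusted p = 0.178) with SFRP2 siRNA. With RAB6A siRNA P2rx4 rose by 0.34 (SE 0.11, 95% interval 0.07 to 0.60, limma adjusted p = 0.028), a call that was lost without any single NC library and without RAB6A siRNA replicate 1 or 2 (0.25 to 0.35, adjusted p from 0.058 to 0.089). The call was also lost with quantile normalization and with no filter on low values (0.34 and limma adjusted p = 0.058 without the filter). Corrected for GC content and gene length, the log2 fold change with RAB6A siRNA was 0.63 (adjusted p = 0.0024). Set against each other, SFRP2 siRNA was lower than RAB6A siRNA by a log2 fold change of -0.63 (SE 0.12, limma adjusted p = 0.0022), which was kept under all 18 alternatives (-0.93 to -0.50).

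P2rx7 had 4.15, 4.22 and 4.34 FPKM in NC, 3.86, 4.18 and 4.82 in SFRP2 siRNA, and 3.66, 2.89 and 3.68 in RAB6A siRNA libraries. The SFRP2 siRNA libraries lay on both sides of NC, whereas those of RAB6A siRNA were all below it. With SFRP2 siRNA the log2 fold change from NC was 0.01 (95% interval -0.20 to 0.22, limma adjusted p = 0.959). With RAB6A siRNA it fell by 0.31 (SE 0.11, limma adjusted p = 0.029), and this call was lost without any single NC library or RAB6A siRNA replicate 2 (-0.33 to -0.20, adjusted p from 0.058 to 0.078). The call was also lost with no filter on low values (-0.31, limma adjusted p = 0.058). Once corrected for GC content and gene length the value was -0.01 (adjusted p = 0.931). A microRNA gene, Mir8115, shares 119 exonic bases with P2rx7 on the same strand, so reads there cannot be assigned to either.

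The ratio of P2rx4 to P2rx7 FPKM within each library, a measure chosen after the values were seen, was 0.832, 0.805 and 0.761 in NC, 0.692, 0.680 and 0.569 in SFRP2 siRNA, and 1.32, 1.57 and 0.982 in RAB6A siRNA. The 3 groups did not overlap, and the FPKM of P2rx4 exceeded that of P2rx7 in 2 of 3 RAB6A siRNA libraries and in 0 of the others. An exact two-sided permutation test gave p = 0.1 for each pair of groups, the smallest that 3 against 3 libraries can reach.

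**Figure D3:**
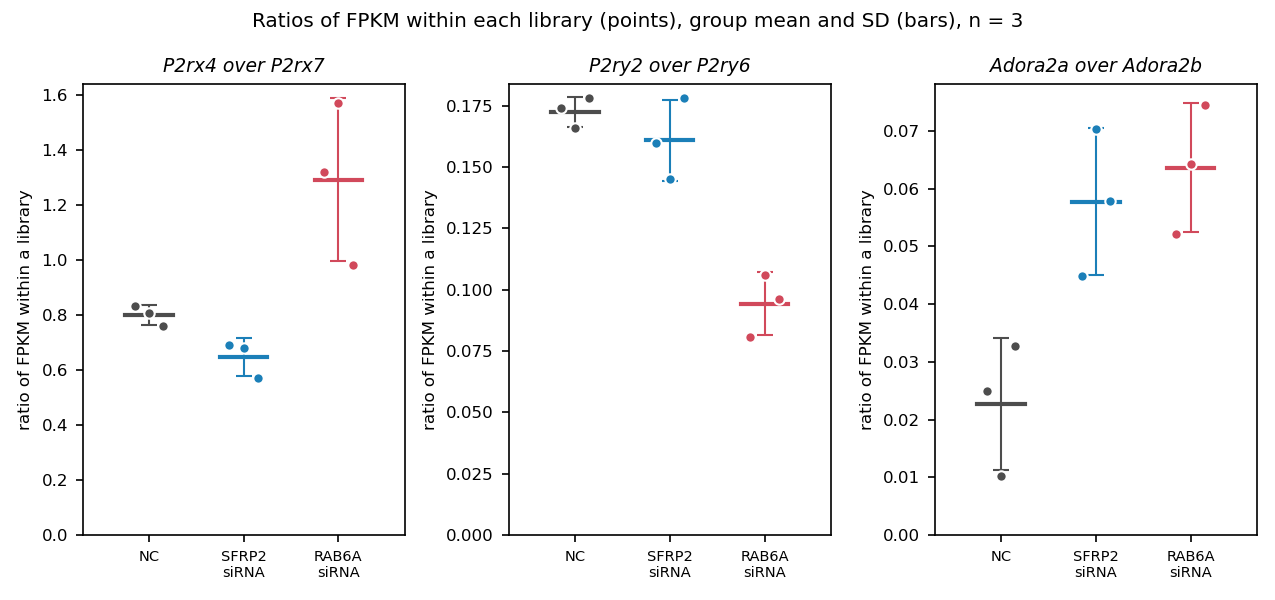
Ratio of FPKM within each library (y axis, linear from 0, points) with group mean and SD (bars, n = 3) for P2rx4 over P2rx7, P2ry2 over P2ry6, and Adora2a over Adora2b. Mean P2rx4 over P2rx7 is 0.799 in NC, 0.647 in SFRP2 siRNA and 1.29 in RAB6A siRNA, and mean P2ry2 over P2ry6 is 0.0943 in RAB6A siRNA against 0.173 in NC.

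P2ry2 and P2ry6 encode receptors that couple to phospholipase C, P2RY2 for ATP and UTP and P2RY6 for UDP, with known roles in chemotaxis and phagocytosis. They too are neighbours, on the - strand of chromosome 7, P2ry6 (ENSMUSG00000048779) at chr7:100937630-100974649 and P2ry2 (ENSMUSG00000032860) at chr7:100996568-101012866, with 21918 bases between them. P2ry2 had 5.47, 5.16 and 6.33 FPKM in NC, 4.52, 4.05 and 4.84 in SFRP2 siRNA, and 2.03, 2.68 and 2.37 in RAB6A siRNA libraries. The 3 groups were separate, with RAB6A siRNA the lowest. The log2 fold change of P2ry2 with RAB6A siRNA was -1.23 (SE 0.12, 95% interval -1.52 to -0.94, limma adjusted p = 6.7e-05), and 22.8% of all genes tested had a larger change in either direction. It kept its call in all 18 alternatives (-1.32 to -0.99). With SFRP2 siRNA it was -0.33 (SE 0.10, limma unadjusted p = 0.013, adjusted p = 0.193).

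As the gene of the 10 with the largest decrease, P2ry2 is shown with its promoter window (RefSeq, chr7:101012004-101012303 of GRCm38.p6, - strand, 5′ to 3′). Capitals mark the E-box CACGTG, from 37 to 42 bases after the start, which reads the same on both strands and is held by 7.15% of 32851 windows.
P2ry2: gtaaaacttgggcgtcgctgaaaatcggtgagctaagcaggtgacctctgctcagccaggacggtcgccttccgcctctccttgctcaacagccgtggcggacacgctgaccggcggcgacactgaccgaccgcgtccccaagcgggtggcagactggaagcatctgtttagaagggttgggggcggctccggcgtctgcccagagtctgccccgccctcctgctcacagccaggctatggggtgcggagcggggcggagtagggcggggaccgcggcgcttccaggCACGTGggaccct
The same E-box falls from -18 to -13 for another RefSeq start of P2ry2. It overlaps ACGTG, the core of the hypoxia response element, which 19.6% of windows hold.

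P2ry6 had 31.5, 31.0 and 35.6 FPKM in NC, 28.2, 28.0 and 27.2 in SFRP2 siRNA, and 25.2, 25.3 and 24.6 in RAB6A siRNA libraries. No group overlapped with another, and the order was the same as for P2ry2 with smaller steps. The log2 fold change from NC was -0.23 (SE 0.06, limma unadjusted p = 0.0074, adjusted p = 0.178) with SFRP2 siRNA, or -0.12 once corrected for GC content and gene length (adjusted p = 0.368). With RAB6A siRNA P2ry6 fell by 0.38 (SE 0.07, limma adjusted p = 0.0013), or by 0.24 after quantile normalization (adjusted p = 0.011). The ratio of P2ry2 to P2ry6, also chosen after the values were seen, was 0.173 ± 0.00572 in NC, 0.161 ± 0.0170 in SFRP2 siRNA and 0.0943 ± 0.0128 in RAB6A siRNA libraries. It overlapped between NC and SFRP2 siRNA and was lower in every RAB6A siRNA library than in NC (exact permutation p = 0.1).

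P2ry14, the receptor of UDP-glucose and related sugars (ENSMUSG00000036381, chr3:59113855-59153618, - strand), was at or near the limit of detection. It had 0, 0 and 6 reads in NC, 0, 0 and 2 in SFRP2 siRNA, and 4, 2 and 0 in RAB6A siRNA libraries. Here a count of 3 reads corresponds to 0.00575 to 0.00828 FPKM, depending on the depth of the library. No fold change is given, since 5 of 9 libraries had 0 reads.

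Entpd1 (ENSMUSG00000048120) lies at chr19:40612366-40741602 on the + strand and encodes CD39, the enzyme that starts the conversion of extracellular ATP toward adenosine. Its RefSeq promoter windows are shown because it had the largest change among the 10 genes in RAB6A siRNA against NC. They belong to 2 starts, at chr19:40612116-40612415 (start 1) and chr19:40659520-40659819 (start 2) of GRCm38.p6, both on the + strand, 5′ to 3′. Capitals mark the reverse match of TGACG in both windows (from -135 to -131 and from -183 to -179) and, in the window of start 2, the PU.1 core GAGGAAG (from -227 to -221).
Entpd1, start 1: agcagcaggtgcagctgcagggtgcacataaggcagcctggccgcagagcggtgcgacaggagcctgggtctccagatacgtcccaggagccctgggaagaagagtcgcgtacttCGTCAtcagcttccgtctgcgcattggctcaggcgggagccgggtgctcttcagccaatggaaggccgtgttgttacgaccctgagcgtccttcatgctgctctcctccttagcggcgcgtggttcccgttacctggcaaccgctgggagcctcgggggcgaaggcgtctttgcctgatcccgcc
Entpd1, start 2: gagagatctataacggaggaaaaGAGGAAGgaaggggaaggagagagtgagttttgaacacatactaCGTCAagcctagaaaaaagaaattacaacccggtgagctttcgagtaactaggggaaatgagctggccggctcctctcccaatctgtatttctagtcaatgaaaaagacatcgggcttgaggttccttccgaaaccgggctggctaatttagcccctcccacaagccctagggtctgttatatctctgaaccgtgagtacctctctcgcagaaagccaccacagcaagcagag
GAGGAAG is held on either strand by 13.6% of the 32851 windows. The deposited values are per gene and do not tell which start was used.

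Entpd1 had 0.0431, 0.0342 and 0.0506 FPKM in NC (10, 9 and 12 reads), 0.0265, 0.0461 and 0.0309 in SFRP2 siRNA (6, 10 and 6 reads), and 1.04, 0.914 and 1.05 in RAB6A siRNA libraries (211, 193 and 192 reads). Every RAB6A siRNA library was far above the other 6, which overlapped among themselves. The mean FPKM was 1.00 ± 0.0759 in RAB6A siRNA and 0.0426 ± 0.00820 in NC, a ratio of 23.5. On the log2(FPKM + 0.1) scale Entpd1 rose by 2.95 (SE 0.33, 95% interval 2.17 to 3.73, limma adjusted p = 1.2e-04), a scale that understates the change of low genes, and 3.18% of all genes tested had a larger change. With a pseudocount of 1 the value was 0.94, with quantile normalization 2.00, and over all 14 alternatives that tested the gene it ran from 0.94 to 4.51 with the call kept. Entpd1 passed the filter only through the RAB6A siRNA libraries, so its call and its rank among tested genes depended on its level there. In the other alternatives Entpd1 was under the filter. Without any filter the value was 2.95 (limma adjusted p = 1.0e-04). Counted as pairs of reads, 299 in RAB6A siRNA stood against 16 in NC, a ratio per depth of 22.9 (95% interval 13.9 to 40.7, counting error only). Between SFRP2 siRNA and NC there were 11 against 16 pairs, a ratio of 0.790 (0.332 to 1.81), and the difference was within the spread of libraries (exact permutation p = 0.300).

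Nt5e (ENSMUSG00000032420, chr9:88327197-88372092, + strand), which makes adenosine from AMP, did not show the increase seen for Entpd1. It had 0.0224, 0.0296 and 0.0875 FPKM in NC, 0.0459, 0.0598 and 0.0268 in SFRP2 siRNA, and 0.0576, 0.0369 and 0.0355 in RAB6A siRNA libraries, which rest on 8 to 32 reads each. The groups overlapped. The ratio per depth to NC was 0.944 (95% interval 0.50 to 1.76) with RAB6A siRNA and 0.973 (0.526 to 1.79) with SFRP2 siRNA, counting error only. Since the NC libraries alone ran from 0.0224 to 0.0875 FPKM, changes beyond these bounds could also have gone unseen.

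Adora2a (ENSMUSG00000020178, chr10:75316877-75334784, + strand) encodes the A2 receptor of higher affinity, known to be induced in macrophages by LPS. It had 0.141, 0.0554 and 0.215 FPKM in NC, 0.250, 0.336 and 0.282 in SFRP2 siRNA, and 0.404, 0.380 and 0.439 in RAB6A siRNA libraries. Both siRNA groups were above NC in every library, and RAB6A siRNA was above SFRP2 siRNA in every library. Its mean was under the filter. An exact permutation test gave p = 0.1 for each pair of groups, the smallest possible. The ratio of read pairs per depth to NC was 2.17 (95% interval 1.34 to 3.60) with SFRP2 siRNA and 3.05 (1.92 to 4.95) with RAB6A siRNA, counting error only. Without the filter, limma gave a log2 fold change of 0.77 (SE 0.33, adjusted p = 0.479) with SFRP2 siRNA and 1.15 (SE 0.32, adjusted p = 0.028) with RAB6A siRNA.

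Adora2b (ENSMUSG00000018500, chr11:62248984-62266453, + strand) encodes the A2 receptor that needs more adenosine. It had 5.68, 5.39 and 6.55 FPKM in NC, 5.56, 4.78 and 4.87 in SFRP2 siRNA, and 7.74, 5.92 and 5.89 in RAB6A siRNA libraries. Both siRNA groups overlapped with NC. The log2 fold change from NC was -0.21 (95% interval -0.43 to 0.02, limma adjusted p = 0.295) with SFRP2 siRNA and 0.14 (-0.16 to 0.44, adjusted p = 0.342) with RAB6A siRNA. SFRP2 siRNA was lower than RAB6A siRNA by a log2 fold change of -0.35 (SE 0.12, limma adjusted p = 0.037), a call that was lost without SFRP2 siRNA replicate 2 or 3, without RAB6A siRNA replicate 1, and in 4 other alternatives (-0.35 to -0.22, adjusted p from 0.052 to 0.104). Adora2a was a small part of the A2 receptor transcripts in every group, with a mean ratio to Adora2b of 0.0227 in NC, 0.0577 in SFRP2 siRNA and 0.0636 in RAB6A siRNA. This ratio, too, was chosen after the values were seen. In the NC libraries it ran from 0.0103 to 0.0328 and rested on 8 to 28 reads of Adora2a.

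Ada (ENSMUSG00000017697, chr2:163726584-163750239, - strand), which ends adenosine signaling, had 4.02, 3.88 and 4.42 FPKM in NC, 3.94, 3.93 and 3.39 in SFRP2 siRNA, and 2.60, 2.89 and 3.16 in RAB6A siRNA libraries. The RAB6A siRNA libraries were below all others, and those of SFRP2 siRNA overlapped with NC. Ada fell by 0.50 on the log2 scale with RAB6A siRNA (SE 0.10, 95% interval -0.73 to -0.27, limma adjusted p = 0.0023), and kept its call in all 18 alternatives (-0.58 to -0.40). With SFRP2 siRNA the log2 fold change was -0.13 (95% interval -0.33 to 0.08, adjusted p = 0.452).

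Compared directly, SFRP2 siRNA and RAB6A siRNA libraries differed in 6 of 7 genes tested (limma adjusted p under 0.05), beside 73.4% of all 12764 genes tested. Of the 6, 3 were higher in SFRP2 siRNA (35.8% of all genes tested) and 3 lower (37.6%), and Entpd1 alone passed an absolute log2 fold change over 1 (31.1%). The count was 3 without SFRP2 siRNA replicate 2 and 3 without RAB6A siRNA replicate 1. All 7 were without overlap between these groups, beside 77.0% of all genes tested. This comparison uses the same libraries as the other comparisons. Entpd1 passed the filter here, too, only through the RAB6A siRNA libraries, so its place in these counts depended on its level there. P2ry2 was higher in SFRP2 siRNA by a log2 fold change of 0.90 (SE 0.12, adjusted p = 4.2e-04), Ada by 0.37 (adjusted p = 0.015) and P2ry6 by 0.15 (adjusted p = 0.026). The P2ry6 call was lost in 7 of 18 alternatives, among them quantile normalization (0.05, adjusted p = 0.391) and leaving out SFRP2 siRNA replicate 1 or 2 or RAB6A siRNA replicate 1 or 2. The Ada call was lost without SFRP2 siRNA replicate 1 or 2. Entpd1 was lower by -3.03 (SE 0.35, adjusted p = 1.9e-04). P2rx7 was higher in every SFRP2 siRNA library than in every RAB6A siRNA library (0.32, limma adjusted p = 0.052). Over the 18 alternatives this value ran from 0.05 to 0.39 (limma adjusted p from 0.018 to 0.723), and it was called in 6 of them.

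Genes around these 10 were examined as lists, which were chosen with earlier results of these data known. With RAB6A siRNA, 10 of 14 genes of nucleoside transport and purine salvage were called by limma, 9 lower and 1 higher, beside 74.1% of all genes tested (36.5% lower and 37.6% higher), and their median log2 fold change was -0.48, beside 0.03 over all genes tested. The equilibrative nucleoside transporter Slc29a2 fell by 2.18 (3.60 to 0.719 FPKM on average), the concentrative transporter Slc28a2 by 1.76, the AMP deaminase Ampd3 by 1.63 and the S-adenosylhomocysteine hydrolase Ahcy by 1.12. Of the other P2 and adenosine receptors, only Adora3, for the A3 receptor, passed the filter among 11, and it fell by 1.63 (1.11 to 0.291 FPKM). It passed only through the NC libraries, so the filter favoured a fall. Bst1, an ectoenzyme that uses NAD, was the only gene tested among 9 other nucleotide ectoenzymes in the table and rose by 0.71 (3.33 to 5.53 FPKM). The vesicular nucleotide transporter Slc17a9, which loads ATP into secretory vesicles and lysosomes, rose by 1.01, and the ATP release channel Panx1 fell by 0.75 among 3 tested genes of ATP release. Of the intracellular relatives of Entpd1, Entpd7 fell by 0.94 and Entpd5 by 0.54 among 3 tested.

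Among G proteins and cAMP effectors, 12 of 15 tested genes were called with RAB6A siRNA, 7 higher and 5 lower, near the 74.1% called over all genes tested. Of the phosphodiesterases that break down cAMP, Pde4d rose by 1.01 and Pde4b fell by 0.89, the phospholipase Plcb3 rose by 0.95 and the inhibitory G protein Gnai3 fell by 0.78. Of 8 tested genes that act with P2RX7 at the inflammasome, 6 were called, 2 higher and 4 lower, again near 74.1%. Pycard, also on this list, was hardly detected and under the filter. Its mean was 0.0892 FPKM in NC, 0.139 in SFRP2 siRNA and 0.0646 in RAB6A siRNA libraries. Nlrp3, the inflammasome sensor, fell by 3.02 on the log2 scale, from 65.9, 64.4 and 67.4 FPKM in NC to 7.51, 7.54 and 9.19 in RAB6A siRNA libraries. The potassium channels Kcnk13 and Kcnk6 fell by 1.09 and 1.05, and Gsdmd, which forms the pore of pyroptosis, rose by 0.56. The limma adjusted p of each tested gene named from these lists with RAB6A siRNA was at most 0.014.

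With SFRP2 siRNA, 0 genes of these lists were called by limma. The number with an unadjusted p under 0.05 was 3 of 15 G proteins and cAMP effectors, 1 of 14 transport and salvage genes, 1 of 8 inflammasome partners and 1 of 1 ectoenzymes. It was 0 of 1 other P2 and adenosine receptors, 0 of 3 intracellular relatives of Entpd1 and 0 of 3 genes of ATP release. Over all genes tested the share was 18.5%. The smallest unadjusted p belonged to Ahcy, whose log2 fold change was -0.30 (limma unadjusted p = 0.0018, adjusted p = 0.165). Plcb3 had -0.19 (unadjusted p = 0.0073), Gsdmd -0.17 (0.025) and Bst1 -0.29 (0.040). Slc17a9 had -0.26, Entpd5 0.19 and Adora3 -0.05, with unadjusted p of 0.136, 0.054 and 0.747. Nlrp3 had 65.5, 65.6 and 70.2 FPKM in the libraries labelled SFRP2 siRNA.

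**Figure D4:**
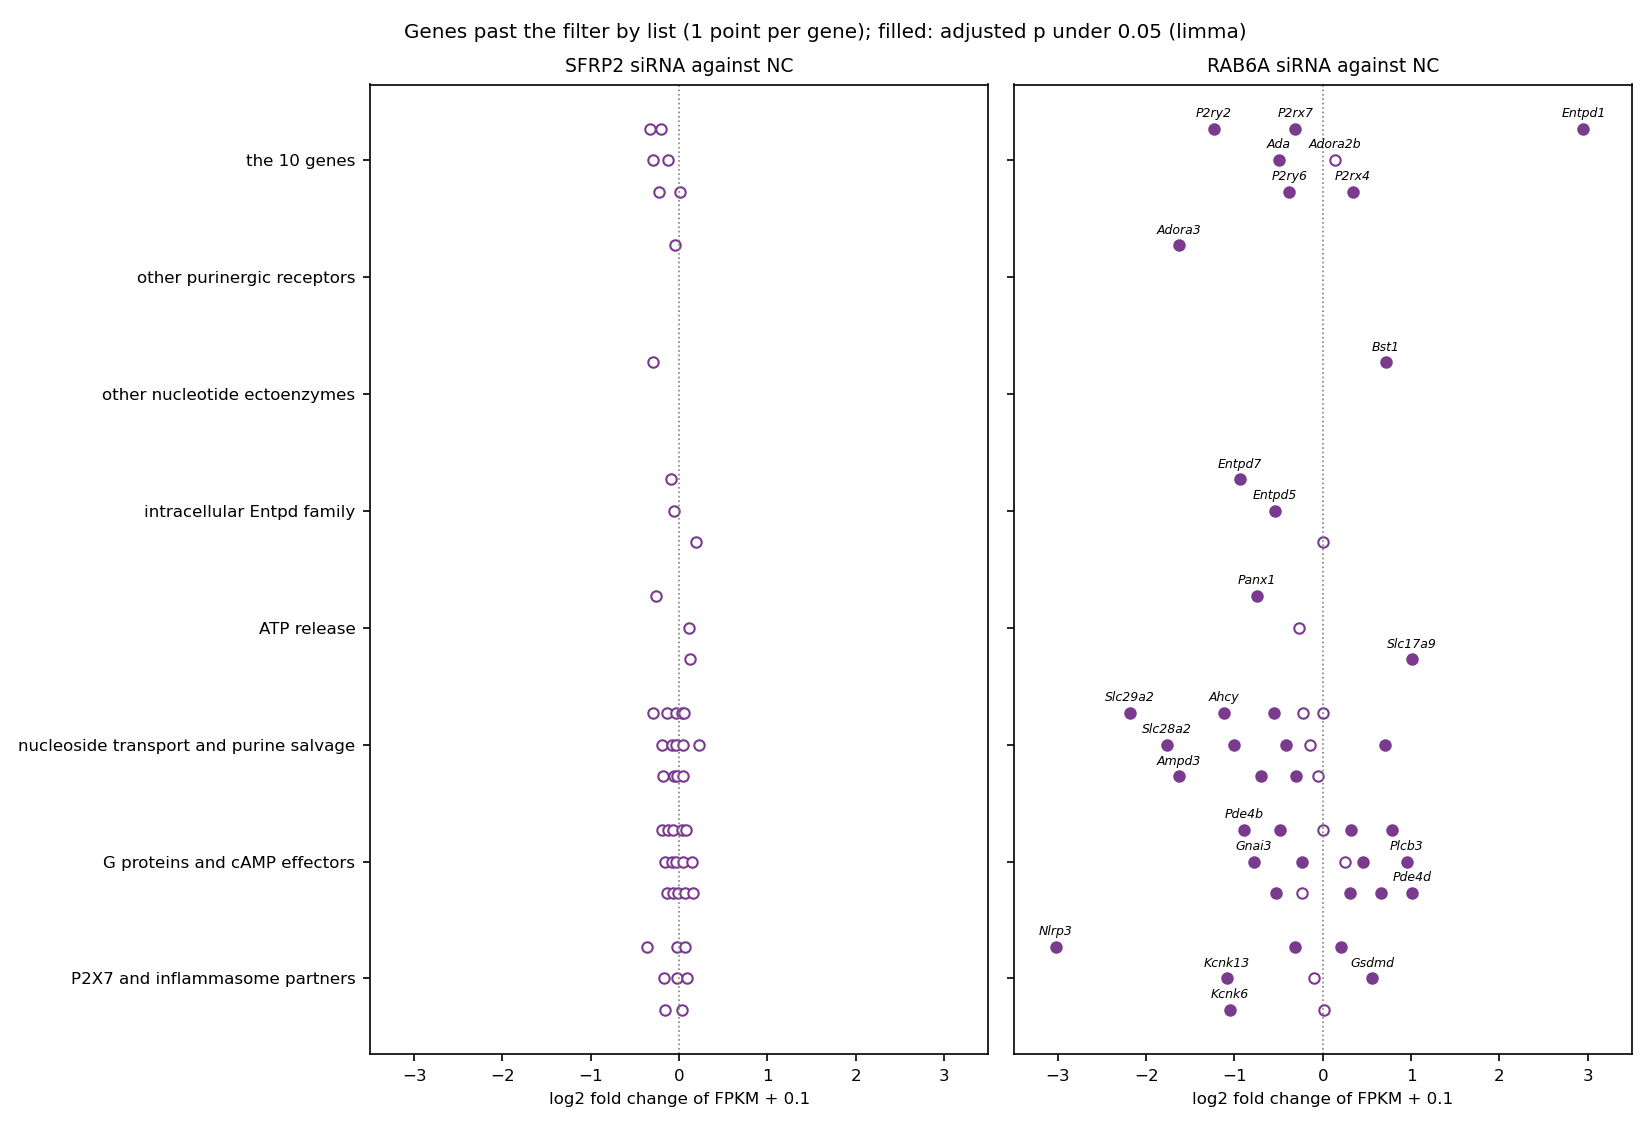
Log2 fold change of FPKM + 0.1 (x axis) of every gene that passed the filter (points), by list (rows; vertical position within a row only separates points), filled where the limma adjusted p was under 0.05. With SFRP2 siRNA all points are open and between -0.5 and 0.5, and with RAB6A siRNA points run from -3.02 for Nlrp3 to 2.95 for Entpd1.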

How the data were processed

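The values deposited by the authors are FPKM, fragments scaled to gene length and library size, for each gene in each library. The submitters' processing notes name HISAT2, featureCounts and Subread without versions, and the genome build is not given in the sources used here. Identifiers were named from GENCODE M21 (27533 of 28137). The labels give the siRNA dose, the times and LPS used above, the titles carry 6 h, and the study's methods give another siRNA dose and another time before LPS, and also name IFN-γ. The RAB6A siRNA group is not described there. FPKM multiplied by exon length gave whole reads in all 9 libraries within 0.03 of a read for 98.4% of named genes, and for all 10 genes described. Of read numbers from 1 to 19, 70.7% were even, so the reads of a pair were taken to be counted singly, and intervals were computed on pairs. They cover counting error only. Replicates differed by more than sampling noise (chi-square per degree of freedom at least 12.69).

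Comparisons of 3 against 3 libraries were fitted with limma 3.58.1 in R 4.3.3 on log2(FPKM + 0.1) with trended eBayes, where the mean of the 6 libraries was 0.5 FPKM or more, with Benjamini-Hochberg adjustment over all genes tested. The study's methods name a test for counts. Since the values are FPKM, limma was used. Calls were made at an adjusted p under 0.05, and those that also passed the study's threshold of 1 on the log2 scale were counted apart. Single values were compared with exact two-sided permutation tests over all divisions of the libraries. Exact intervals on read pairs were computed with scipy 1.17.1. The fit was also run on simulated reads, drawn singly and with most genes unchanged. In these libraries reads come in pairs, and most genes moved with RAB6A siRNA. The simulation therefore checks the code and not the error rates in these data. The 10 genes and the lists were chosen with earlier results of these data known. Within lists, the genes named were the 4 of largest absolute change among those called in RAB6A siRNA against NC and the gene of smallest p in SFRP2 siRNA against NC. Pycard, which was under the filter, was named in addition. Alternatives were other pseudocounts (1 and 0.01), filters, scalings and fits, voom on recovered reads, a GC content and length correction, the replicate number as a block, and each library left out. Promoter windows came from RefSeq (GRCm38.p6) and were present for 8 of 10 genes. P2ry6 and Adora2a had no entry.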

Additional observations from a re-analysis of the deposited data

Results flagged for a closer look

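P2rx4 lay on opposite sides of NC in the siRNA groups. Every library labelled SFRP2 siRNA was below NC (2.75 ± 0.0870 against 3.38 ± 0.0765 FPKM, SD, n = 3) and every RAB6A siRNA library was above it (4.33 ± 0.640). Between the siRNA groups the log2 fold change was -0.63 (limma adjusted p = 0.0022), a value that is not independent of this ordering, which already places every SFRP2 siRNA library below every RAB6A siRNA library. Both comparisons share the NC libraries, and the decrease with SFRP2 siRNA did not pass adjustment (limma adjusted p = 0.178). The increase with RAB6A siRNA kept its call in 11 of 18 alternatives.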

How the results depend on the processing

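Among values of single genes under the alternatives, 314 kept their direction and their side of the threshold, 30 lost a call, 6 gained a call, and 2 changed sign. Both sign changes were of P2rx7 in SFRP2 siRNA against NC, near 0 throughout (-0.08 to 0.08 on leaving out a library), with -0.00 without NC replicate 1 and -0.08 without SFRP2 siRNA replicate 3. In RAB6A siRNA against NC, leaving out a library gave 3 to 5 called genes of the 10 in place of 6 (3 without RAB6A siRNA replicate 2), and in SFRP2 siRNA against RAB6A siRNA 3 to 5 in place of 6 (3 without SFRP2 siRNA replicate 2 or without RAB6A siRNA replicate 1). Entpd1 fell under the filter whenever a RAB6A siRNA library was left out and at a minimum of 1 FPKM. Calls of P2ry2, P2ry6 and Ada in RAB6A siRNA against NC held in all 18 alternatives, that of Entpd1 in the 14 in which it was tested, and those of P2rx4 and P2rx7 in 11 of 18. In SFRP2 siRNA against NC, 0 of the 10 genes were called in any alternative. With the replicate number as a block, 0, 6 and 6 genes were called in the 3 comparisons, as without it. P2ry6 lost its call in SFRP2 siRNA against RAB6A siRNA under the block and P2rx7 gained it. Same-numbered libraries did not deviate together (correlations from -0.085 to 0.048). These deviations were taken from means of only 3 libraries, so they cannot tell whether same-numbered libraries shared a culture or batch. In RAB6A siRNA against NC, 3829 genes passed both thresholds, or 2389 with a pseudocount of 1. P2ry14 and Nt5e are limited by depth.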
